A study of Sisymbrium orientale with 12 samples.

Results

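The plant cell wall genes described here code for expansins, xyloglucan endotransglucosylase/hydrolases (XTHs) and proteins that act on pectin. They were chosen from assembled leaf transcripts (contigs) whose deposited gene description contains "expansin", "xyloglucan endotrans" or "pectin", whatever the case of the letters, and lacks "INVOLVED IN". This rule found 184 of 33277 contigs in the table of values, and the last condition removed 0 of them. Summed by the closest Arabidopsis locus of each contig, they made 121 of 16386 loci. By the wording of the description these were 18 expansin loci, 16 XTH loci, 41 pectin lyase-like loci, 36 loci of pectin methylesterases and their inhibitors, and 10 pectin acetylesterase loci.

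A growing plant wall is a network of cellulose fibres tied by xyloglucan and embedded in pectin, and a cell enlarges when this network is loosened under turgor. Expansins loosen the contacts between cellulose and xyloglucan without cutting either, and alpha-expansins work best in the acid wall that proton pumps produce. XTHs cut xyloglucan chains and join them to other chains, or to water. Pectin is deposited with methyl and acetyl groups. Methylesterases remove the methyl groups, inhibitor proteins block these enzymes, acetylesterases remove the acetyl groups, and pectate lyases and polygalacturonases, both of the pectin lyase-like fold, cut the bared backbone. Auxin is a classic inducer of wall loosening in growing shoots, partly through proton pumping and partly through the transcription of wall genes.

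The leaves came from Sisymbrium orientale, a weed of the same plant family as Arabidopsis, in lines that resisted or succumbed to 2,4-D, a herbicide that mimics auxin; the series title traces the resistance to a deletion in the degron tail of IAA2, a repressor of auxin responses. For each of 12 lines 1 RNA library was made from the youngest leaf that had expanded, in plants at the 4-leaf stage that had received no herbicide. Cross A, at generation F4, gave the resistant lines R202, R206 and R221 and the susceptible lines S205, S207 and S242. Cross B, at generation F3, gave the resistant lines RP6 and RP8 and the susceptible lines SP3, SP7, SP9 and SRP1. Cross and generation cannot be told apart. How many plants made up a library is not in the labels. The p-values measure the spread between these libraries only, each from a different line. Differences of line, plant and technique within that spread cannot be told apart. Where all 12 values of a locus are given below, they follow this order of lines.

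The deposited values are in CPM (reads scaled to a common library size), and the libraries held 100976475 (R206) to 145936928 (RP8) reads, so that 3 reads stood for 0.0196 to 0.0299 CPM. Contigs of the Rubisco small chain, the most abundant leaf protein, took 6.62% of the values in S205 and 5.17% in SP9, against 3.39% to 4.60% in the other 10 lines. Leaf identity was plain, with the mesophyll marker RBCS1A at 20593 to 48880.0 CPM. S205 held the highest value of 24.5% and the lowest of 25.9% of all 16051 loci tested, so this library stood apart. In RNA of whole leaves, as here, fewer cells of a type and less RNA per cell cannot be told apart.

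The 5 families differed widely in how much their summed level varied among the lines. XTH transcripts varied most, with a ratio of 4.15 between the highest and the lowest line (SP7 and S205), followed by the expansins with 2.17 (S205 and SRP1). The pectin acetylesterases followed with 1.67 (SP7 and S242), the pectin lyase-like loci with 1.40 (S205 and SP7) and the methylesterases and inhibitors with 1.34 (SP9 and R202). The summed XTH level was at 888, 995 and 1394 CPM in the resistant and 559, 876 and 928 CPM in the susceptible lines of cross A, and at 893 and 953 CPM in the resistant and 1081, 2322, 757 and 2058 CPM in the susceptible lines of cross B. The summed expansin level was at 712, 762 and 669 CPM in the resistant and 1206, 822 and 696 CPM in the susceptible lines of cross A, and at 850.1 and 862 CPM in the resistant and 688, 588, 791 and 556 CPM in the susceptible lines of cross B. At the extremes the families ran in opposite orders: SP7 and SRP1 had the highest XTH sums and the lowest expansin sums, and S205 had the lowest XTH sum and the highest expansin sum. The place of S205 at the bottom of the XTHs rested on XTH9: summed without that locus, the lowest line was S242 at 343 CPM, and S205 at 352 CPM lay close to RP8 at 360.0 CPM. Without S205 the ratios were 3.07 for the XTHs and 1.55 for the expansins.

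**Figure D1:**
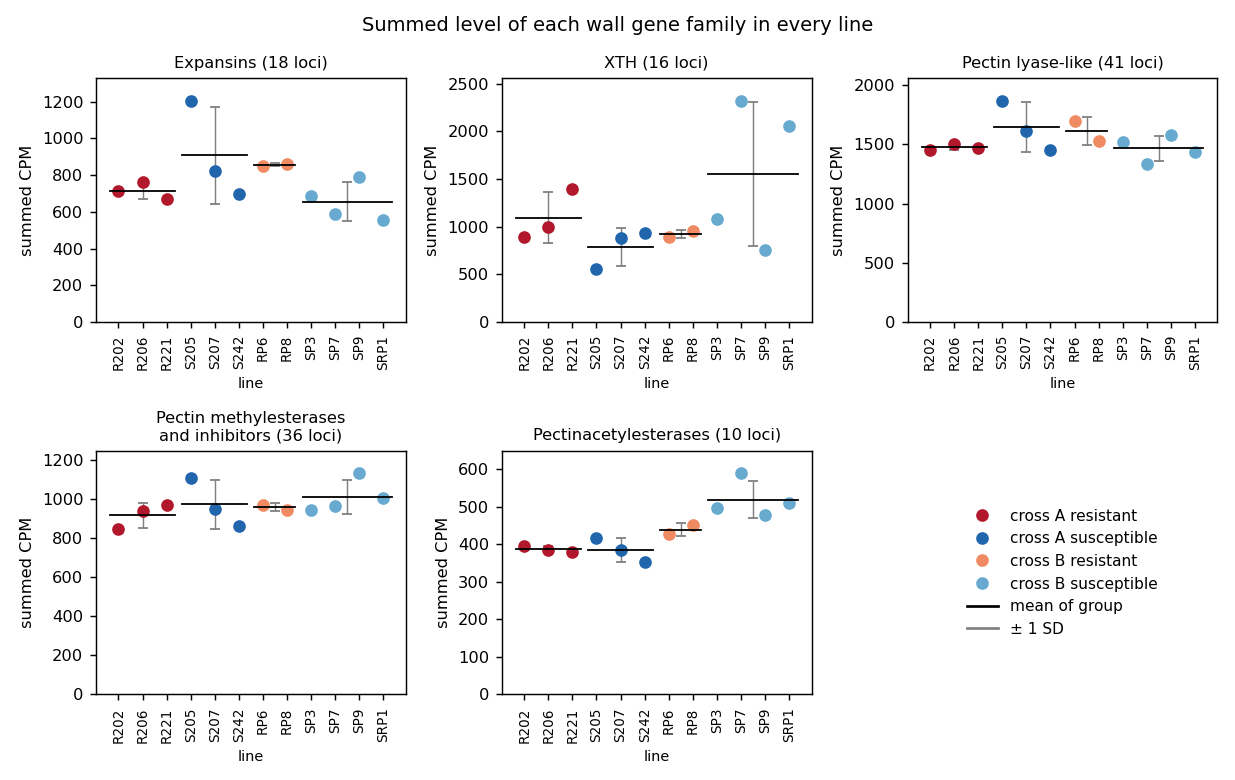
Summed CPM (vertical axes, from 0) of the loci of each wall gene family in each of the 12 lines (horizontal axes). Points are single libraries coloured by group, black lines are group means and grey bars are ± 1 SD; the XTH sums of SP7 (2322 CPM) and SRP1 (2058 CPM) lie above those of all other lines.

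Resistant and susceptible lines overlapped in all 5 family sums, and the 2 crosses overlapped in 4. Summed pectin acetylesterase values were 386 ± 21.0 CPM (SD, n = 6) in cross A and 492 ± 56.7 CPM (SD, n = 6) in cross B, and the highest line of cross A (S205, 417 CPM) lay below the lowest of cross B (RP6, 426 CPM). Summed without AT4G19410, the most abundant of them, the crosses overlapped, with S205 at 299 CPM above RP8 at 289 CPM. Summed XTH values were 1025 ± 211 CPM (SD, n = 5 resistant lines) against 1226 ± 682 CPM (SD, n = 7 susceptible lines), a difference smaller than the spread among the susceptible lines. Summed expansin values were 771 ± 84.4 CPM among the 5 resistant lines and 764 ± 218 CPM among the 7 susceptible lines. No p-value is attached to a family sum, because the families were chosen with earlier results of these data known.

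XTH9 made up 56.8% of the XTH sum on average. Per kb of contig it stood at 472 ± 222 CPM per kb (SD, n = 12 lines), the highest level of the 121 loci, ahead of PME3 at 155 ± 15.5 CPM per kb and AT5G62350 at 148 ± 24.9 CPM per kb. It was at 506, 616 and 826 CPM in the resistant and 206.9, 498 and 585 CPM in the susceptible lines of cross A, and at 521 and 593 CPM in the resistant and 637, 1226, 360.1 and 1212 CPM in the susceptible lines of cross B. SP7 and SRP1 were the highest lines, and S205 and SP9 the lowest. XTH4, the next XTH by summed CPM, was at 134, 134 and 229 CPM in the resistant and 141, 128 and 127 CPM in the susceptible lines of cross A, and at 129 and 117 CPM in the resistant and 171, 369, 146 and 294 CPM in the susceptible lines of cross B. SP7, SRP1 and R221 were its highest lines, and the other 9 lay at 117 to 171 CPM. XTH16 was at 45.5, 34.0 and 93.6 CPM in the resistant and 12.6, 28.4 and 29.8 CPM in the susceptible lines of cross A, and at 35.3 and 37.3 CPM in the resistant and 37.2, 273, 15.7 and 193 CPM in the susceptible lines of cross B. Its highest line exceeded its lowest by 21.6 times, with SP7, SRP1 and R221 on top and S205 and SP9 at the bottom. XTH32 was at 51.4, 62.7 and 44.0 CPM in the resistant and 56.9, 51.2 and 49.6 CPM in the susceptible lines of cross A, and at 57.1 and 66.7 CPM in the resistant and 69.1, 58.4, 60.7 and 62.5 CPM in the susceptible lines of cross B, and its lines differed by at most 1.57 times.

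Wide ranges were also found at 2 less abundant loci of the family. AT5G57560, annotated as an XTH family member, was at 1.92, 0.988 and 4.02 CPM in the resistant and 1.304, 1.37 and 1.43 CPM in the susceptible lines of cross A, and at 1.23 and 2.105 CPM in the resistant and 2.26, 31.2, 1.71 and 12.2 CPM in the susceptible lines of cross B. XTH24 was at 10.8, 8.59 and 25.2 CPM in the resistant and 7.08, 19.0 and 8.11 CPM in the susceptible lines of cross A, and at 7.52 and 5.41 CPM in the resistant and 16.9, 110.3, 18.8 and 73.0 CPM in the susceptible lines of cross B. SP7 was the highest and SRP1 the next line for both, and the other 10 lines did not exceed 4.02 and 25.2 CPM, both in R221. Of the 16 XTH loci, 8 had SP7 and SRP1 as their highest lines (XTH9, XTH4, XTH16, XTH15, XTH6, XTH8, XTH24 and AT5G57560), while 6.60% of all loci tested did. XTH7 behaved otherwise: SP9 was highest at 21.2 CPM and S205 next at 12.7 CPM, with 2.93 to 10.1 CPM in the other lines. XTH28 stayed within 32.4 to 49.0 CPM, and its lowest line was SP7.

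EXPA6, an alpha-expansin, led the expansins with 25.1% of their sum and 128 ± 16.4 CPM per kb. It was at 154, 186 and 167 CPM in the resistant and 212, 168 and 164 CPM in the susceptible lines of cross A, and at 206.4 and 228 CPM in the resistant and 224, 191, 213 and 197 CPM in the susceptible lines of cross B. Its highest and lowest lines differed by 1.49 times. The other 3 leading expansins varied more. EXPA1, another alpha-expansin, was at 86.0, 94.8 and 86.3 CPM in the resistant and 279, 138 and 66.7 CPM in the susceptible lines of cross A, and at 138 and 115 CPM in the resistant and 78.4, 48.8, 88.0 and 65.5 CPM in the susceptible lines of cross B. S205 was the highest line, at 5.73 times the level of SP7, the lowest. EXPB3, a beta-expansin, was at 100.8, 121 and 80.5 CPM in the resistant and 216, 133 and 97.4 CPM in the susceptible lines of cross A, and at 121 and 134 CPM in the resistant and 94.5, 38.5, 102 and 47.2 CPM in the susceptible lines of cross B. S205 was again highest, and SP7 and SRP1 were the only lines under 50 CPM. EXPA15 was at 101.4, 108 and 77.6 CPM in the resistant and 81.1, 74.9 and 125 CPM in the susceptible lines of cross A, and at 106 and 104 CPM in the resistant and 49.4, 71.7, 70.2 and 40.2 CPM in the susceptible lines of cross B, lowest in SRP1 and SP3.

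SP7 and SRP1 were the lowest lines for 4 of the 18 expansins (EXPA1, EXPB3, EXPA10 and EXPA9), against 4.65% of all loci. Among them EXPA10 stood at 29.2 and 35.1 CPM in SP7 and SRP1 and at 49.3 to 104 CPM elsewhere. Expansins did not all share this order. EXLA2, an expansin-like protein whose wall activity is not established, was highest in SP7 (26.5 CPM) and SRP1 (7.28 CPM), with 2.22 to 5.26 CPM in the other lines. EXLB1, another expansin-like protein, was highest in S205 (11.1 CPM) and SP9 (4.90 CPM), with 0.503 to 4.56 CPM elsewhere. S205 held the highest value of 7 of the 18 expansins (38.9%, against 24.5% of all loci), among them EXPA8 at 67.9 CPM against 8.81 to 33.8 CPM elsewhere.

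**Figure D2:**
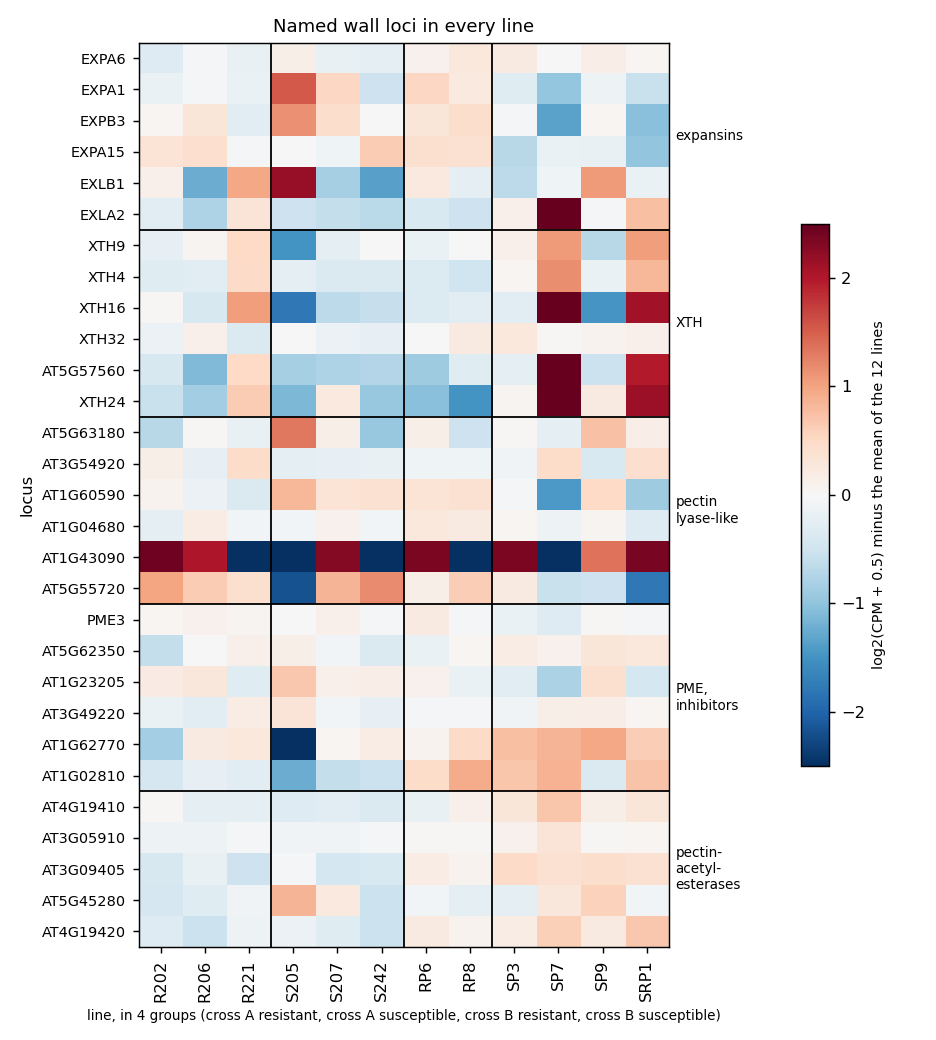
Level of 29 wall loci (rows, grouped by family) in the 12 lines (columns, in 4 groups), as log2(CPM + 0.5) minus the mean of the locus over the 12 lines, on a colour scale that ends at ± 2.5. XTH16, XTH24 and AT5G57560 are highest in SP7 and SRP1, EXPA1 and EXPB3 are lowest there, and S205 often shows the opposite.

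Among the pectin lyase-like loci no locus held more than 10.3% of the sum. The annotation names their fold and not the activity of each, so they need not all be lyases or polygalacturonases. AT5G63180 was at 90.2, 148 and 128 CPM in the resistant and 361, 161 and 74.7 CPM in the susceptible lines of cross A, and at 162 and 101.0 CPM in the resistant and 148, 125, 240.1 and 164 CPM in the susceptible lines of cross B. S205 and SP9 were its highest lines. AT3G54920 was at 124, 97.5 and 154 CPM in the resistant and 96.1, 97.6 and 98.5 CPM in the susceptible lines of cross A, and at 104 and 105 CPM in the resistant and 106, 155, 85.5 and 149.7 CPM in the susceptible lines of cross B. SP7, R221 and SRP1 were its highest lines, and R202 was next. AT1G60590 was at 109.9, 93.3 and 80.2 CPM in the resistant and 183, 129.8 and 135 CPM in the susceptible lines of cross A, and at 130.1 and 134 CPM in the resistant and 99.8, 38.0, 145 and 55.7 CPM in the susceptible lines of cross B, lowest in SP7 and SRP1. AT1G04680 was at 91.3, 124 and 103 CPM in the resistant and 104, 117 and 104 CPM in the susceptible lines of cross A, and at 129.9 and 126 CPM in the resistant and 113, 100.1, 114 and 87.1 CPM in the susceptible lines of cross B and varied 1.49 times. SP7 and SRP1 were the lowest lines for 6 of the 41 loci (14.6%, against 4.65% of all loci), namely AT1G60590, AT1G10640, AT4G24780, AT5G19730, AT1G48100 and AT3G26610. They were the highest lines for 4 (9.76%, against 6.60% of all loci), namely AT4G23820, AT3G62110, AT3G06770 and AT5G49215. AT5G47500 was low in S205 (16.1 CPM) and SP9 (35.8 CPM) and at 72.4 to 157 CPM in the other lines.

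PME3, a pectin methylesterase, made up 25.5% of the sum of its family and was the steadiest of its leading loci. It was at 255, 266 and 259 CPM in the resistant and 244, 268 and 236 CPM in the susceptible lines of cross A, and at 288 and 241 CPM in the resistant and 220.6, 197, 252 and 237 CPM in the susceptible lines of cross B. The other leading loci carry the description of the invertase and methylesterase inhibitor superfamily, which holds inhibitors as well as methylesterases with an inhibitor-like extension, so the role of each is not given by its annotation. AT5G62350 was at 89.8, 137 and 147 CPM in the resistant and 149, 129 and 104 CPM in the susceptible lines of cross A, and at 121 and 139 CPM in the resistant and 153, 146, 167 and 163 CPM in the susceptible lines of cross B, lowest in R202. AT1G23205 was at 119.6, 125 and 83.3 CPM in the resistant and 166, 113 and 117 CPM in the susceptible lines of cross A, and at 112 and 91.8 CPM in the resistant and 86.2, 59.8, 137 and 75.8 CPM in the susceptible lines of cross B. S205 was its highest and SP7 its lowest line. AT3G49220 was at 92.6, 85.2 and 117 CPM in the resistant and 130.2, 98.5 and 90.1 CPM in the susceptible lines of cross A, and at 101.2 and 102 CPM in the resistant and 96.8, 114, 116 and 107 CPM in the susceptible lines of cross B. Over the family, 11 of 35 loci tested had S205 and SP9 as their highest lines, among them AT5G53370 and PME61, while 16.6% of all loci did. AT5G53370, described as a pectin methylesterase, reached 81.6 CPM in S205 and 92.0 CPM in SP9 and 30.2 to 71.6 CPM in the other lines.

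AT4G19410 led the pectin acetylesterases with 34.6% of their sum. It was at 150.3, 126 and 124 CPM in the resistant and 118, 123 and 115 CPM in the susceptible lines of cross A, and at 131 and 161 CPM in the resistant and 184, 240.0, 164 and 183 CPM in the susceptible lines of cross B. The 4 susceptible lines of cross B were its highest lines, with SP7 at the top. AT3G05910 was at 62.6, 62.4 and 66.3 CPM in the resistant and 64.8, 64.1 and 65.9 CPM in the susceptible lines of cross A, and at 69.9 and 70.4 CPM in the resistant and 73.6, 85.7, 69.7 and 70.7 CPM in the susceptible lines of cross B. All lines of cross B lay above all lines of cross A. AT5G45280 was at 28.6, 31.3 and 36.2 CPM in the resistant and 69.2, 45.5 and 26.4 CPM in the susceptible lines of cross A, and at 36.7 and 32.3 CPM in the resistant and 32.7, 46.8, 57.7 and 36.6 CPM in the susceptible lines of cross B, highest in S205 and SP9. AT3G09405, the third locus by level, differed between the crosses and is given with that comparison.

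A few loci were close to 0 in some lines and well measured in others. AT1G43090, a pectin lyase-like locus, was at 27.5, 20.4 and 0.241 CPM in the resistant and 0.242, 24.9 and 0.0340 CPM in the susceptible lines of cross A, and at 25.8 and 0.0654 CPM in the resistant and 26.0, 0.0882, 12.7 and 26.1 CPM in the susceptible lines of cross B. R202, R206, S207, RP6, SP3 and SRP1 were high, SP9 was intermediate, and R221, S205, S242, RP8 and SP7 were at or below 0.242 CPM. High and low lines occurred in both phenotypes of both crosses. Of all 16051 loci tested, 40 (0.249%) were below 0.5 CPM in at least 1 line and above 20 CPM in at least 1 other, and AT1G43090 was the 1 wall locus among them. Its 3 contigs all came from the assembly marked R, and each was lowest in the same 5 lines.

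EXPA8, an alpha-expansin, had a similar range in 1 contig beneath its summed value. One of its 5 contigs, 843 bases long and from the assembly marked S, was at 0.491, 0.778 and 12.8 CPM in the resistant and 36.04, 1.68 and 9.38 CPM in the susceptible lines of cross A, and at 1.77 and 16.3 CPM in the resistant and 0.893, 5.31, 7.66 and 0.605 CPM in the susceptible lines of cross B. The 6 lines under 2 CPM were R202, R206, S207, RP6, SP3 and SRP1, the same lines in which AT1G43090 was high. Among the 33277 contigs, 121 (0.364%) passed the same limits of 0.5 and 20 CPM, and this contig was the 1 of 184 wall contigs that did. It was singled out after its values were seen. What sets these ranges was not tested.

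Single lines were low at 2 further loci. AT1G62770, of the methylesterase inhibitor superfamily, was at 0.276 CPM in S205 and at 4.88 to 18.4 CPM in the other 11 lines. AT5G55720, a pectin lyase-like locus, was at 0.449 CPM in S205, 0.756 CPM in SRP1 and 2.43 to 9.23 CPM in the other 10.

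**Figure D3:**
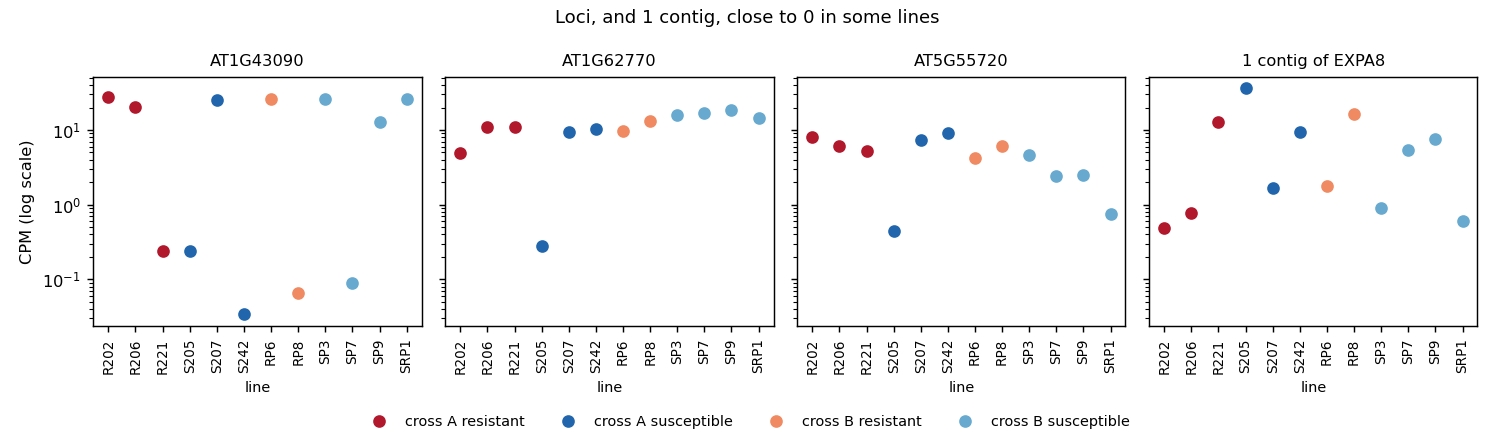
CPM on a log scale (vertical axis, shared) of 3 wall loci and 1 contig of EXPA8 in the 12 lines (horizontal axes); each point is 1 library, coloured by group. AT1G43090 is at or below 0.242 CPM in 5 lines and at 12.7 CPM or more in 7, and the EXPA8 contig is low in 6 of those 7.

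Between the crosses, 4 of 120 wall loci tested differed, all 4 higher in cross B: 2 pectin acetylesterases, 1 pectin lyase-like locus and 1 locus of the methylesterase inhibitor superfamily. This was 3.33% of the wall loci. Of all 16051 loci tested, 1.25% were called in either direction and 0.561% as higher in cross B, by limma on log2(CPM + 0.5) with phenotype as a covariate and Benjamini-Hochberg adjustment below 0.05. The remaining member of the 121, AT1G09370 of the inhibitor superfamily, was too low to be tested, at 0.364 to 1.39 CPM. No expansin and no XTH was called.

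AT1G05310, the pectin lyase-like locus, was at 5.99, 4.03 and 5.68 CPM in the resistant and 5.53, 6.16 and 3.94 CPM in the susceptible lines of cross A, and at 11.3 and 9.90 CPM in the resistant and 14.8, 12.2, 14.3 and 11.96 CPM in the susceptible lines of cross B. Every line of cross B was above every line of cross A. The means were 5.22 ± 0.985 CPM in cross A and 12.4 ± 1.84 CPM in cross B (SD, n = 6 each), with a log2 difference of 1.16 (SE 0.13) and a limma adjusted p of 0.00218. AT3G09405, a pectin acetylesterase, was at 44.1, 51.3 and 40.7 CPM in the resistant and 57.9, 43.5 and 45.2 CPM in the susceptible lines of cross A, and at 66.6 and 62.8 CPM in the resistant and 81.7, 77.2, 80.1 and 76.4 CPM in the susceptible lines of cross B. Again the crosses did not overlap. The log2 difference was 0.62 (SE 0.09) with a limma adjusted p of 0.00679, and each of its 3 contigs was called when contigs were tested singly.

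AT4G19420, also a pectin acetylesterase, was at 17.4, 14.9 and 20.0 CPM in the resistant and 19.7, 17.6 and 14.9 CPM in the susceptible lines of cross A, and at 25.9 and 23.5 CPM in the resistant and 25.1, 33.3, 25.8 and 35.2 CPM in the susceptible lines of cross B. The crosses did not overlap, and the log2 difference was 0.65 (SE 0.12) with a limma adjusted p of 0.0319. Its 3 contigs were each called singly too. AT1G02810, of the inhibitor superfamily, was at 1.002, 1.24 and 1.16 CPM in the resistant and 0.354, 0.831 and 0.884 CPM in the susceptible lines of cross A, and at 2.26 and 3.35 CPM in the resistant and 2.75, 3.20, 1.06 and 2.79 CPM in the susceptible lines of cross B. SP9 lay within the range of cross A, and the other 5 lines of cross B lay above it. The log2 difference was 1.16 (SE 0.22) with a limma adjusted p of 0.0343. AT1G05310 and AT3G09405 were called under all 22 alternatives tried, whereas AT4G19420 and AT1G02810 were called under 13, each losing the call when any of 9 single libraries was left out, with adjusted p up to 0.0837 and 0.112. With single libraries left out, the count of called wall loci ranged from 2 to 5, and the share of all loci called from 0.337% to 1.69%.

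**Figure D4:**
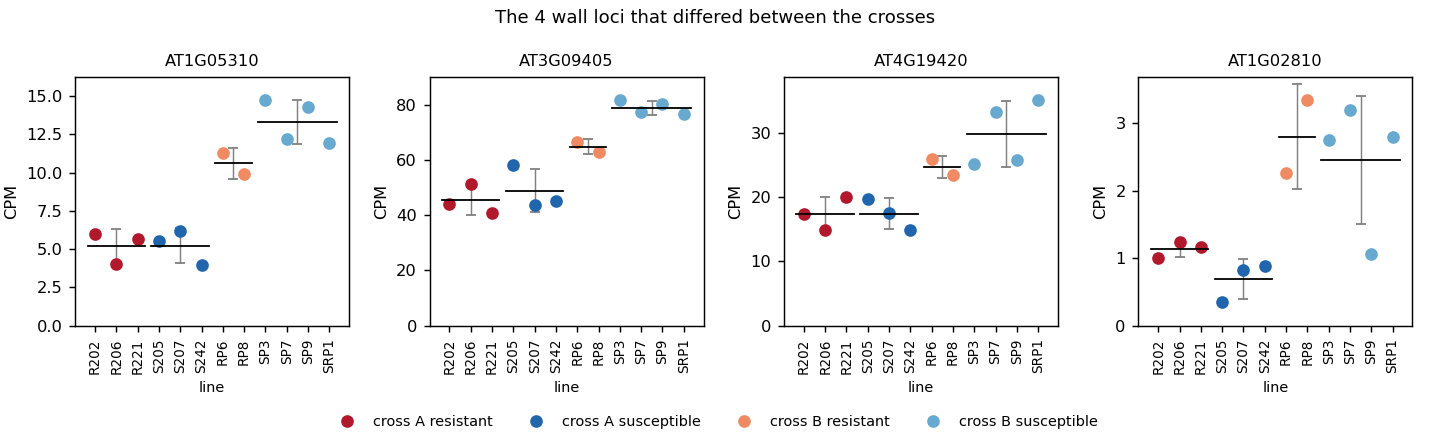
CPM (vertical axes, from 0) of the 4 wall loci called between the crosses, in each of the 12 lines (horizontal axes). Points are single libraries coloured by group, black lines are group means and grey bars ± 1 SD; at AT1G05310, AT3G09405 and AT4G19420 all 6 lines of cross B lie above all 6 of cross A.

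At an unadjusted p below 0.05 there were 18 wall loci higher in cross B (15%, against 7.31% of all loci) and 6 lower (5%, against 6.25%). The crosses did not overlap at 6 wall loci (5%), all higher in cross B, against 1.03% of all loci in that direction. Besides AT1G05310, AT3G09405 and AT4G19420 these were AT3G05910, the pectin lyase-like AT1G19170 and AT4G02330 of the inhibitor superfamily. No wall locus lay wholly lower in cross B, against 1.03% of all loci. The next locus by p-value, AT1G23460 (pectin lyase-like), was at 13.6 to 26.1 CPM (median 16.6, n = 6) in cross A and 21.5 to 35.6 CPM (median 25.7, n = 6) in cross B, with a log2 difference of 0.55 (SE 0.14) and a limma adjusted p of 0.0982. Without S205 and SP9 it passed as well, which made 5 called loci of 118, while 1.05% of all loci were called. DESeq2 on the recovered reads called 11 wall loci, 10 of them higher in cross B and XTH28 lower, while it called 772 of all 16051 loci (4.81%), 350 of them higher. Of the 10 pectin acetylesterases 8 had a positive log2 difference, with a median of 0.26, while 52.0% of all loci were positive with a median of 0.01. For the 16 XTHs the count was 14 with a median of 0.37, and for the 18 expansins it was 9 with a median of -0.13. SP7 and SRP1 were the highest lines of 8 of the 16 XTHs. The XTH sums of the other lines of cross B, at 757 to 1081 CPM, lay within the 559 to 1394 CPM of cross A. Reads shared by neighbouring or near-identical copies, such as AT4G19410 and AT4G19420, or AT3G09405 and AT3G09410, may have been split between them.

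Marker sums of the 2 crosses overlapped. The 8 markers of dividing cells summed to 162 to 444 CPM in cross A and 184 to 349.7 CPM in cross B, the 8 vascular markers to 174 to 433 CPM and 218 to 384 CPM, and the 5 epidermal markers to 376 to 890.4 CPM and 443 to 743 CPM. None of these markers, nor of the 4 guard cell and 4 mesophyll markers, was called between the crosses or at 0 in a line. At an unadjusted p below 0.05, 6 of 30 markers (20%, against 13.6% of all loci) were listed between the crosses. LHCB2.1 of the mesophyll (0.67) and CESA7 of the vascular tissue (0.33) were higher in cross B on the log2 scale, and SWEET12 of the vascular tissue (-1.11), FAMA and EPF1 of the guard cells (-0.31 and -0.26) and PDF2 of the epidermis (-0.18) were lower. Their part in the wall values was not tested.

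Between resistant and susceptible lines, the comparison that the study was built on, no wall locus was called. With cross as a covariate limma called 0 of 120 wall loci and 0 of all 16051 loci (0%). At an unadjusted p below 0.05 it listed 11 wall loci (9.17%), 8 higher and 3 lower in resistant lines, against 8.22% of all loci, of which 4.42% were higher and 3.8% lower. This count and its balance varied with single libraries, and the share of all loci moved with the count. Without S242 the count was 31 (25.8%, 12 higher and 19 lower) against 16.2% of all loci. It was 6 without RP6 (5%, against 5.36% of all loci) and 6 without RP8 (5.04%, against 4.88%). On the recovered reads, edgeR called 0 wall loci, and DESeq2 0 wall loci among 20 loci in all (0.125%). At its unadjusted p below 0.05 DESeq2 listed 19 wall loci (15.8%), 9 higher and 10 lower, against 11.4% of all loci. No wall locus had all 5 resistant lines on 1 side of all 7 susceptible lines, against 0.237% of all loci with resistant lines above and 0.293% below. The 8 dividing-cell markers summed to 314 to 402 CPM in resistant and 162 to 444 CPM in susceptible lines, and the 4 guard cell markers to 80.5 to 102 CPM and 58.2 to 102 CPM. No marker was called by limma. At its unadjusted p below 0.05, 8 of 30 markers (26.7%, against 8.22% of all loci) were listed, 8 higher and 0 lower in resistant lines. These were 3 markers of dividing cells, 3 of guard cells, PDF1 of the epidermis and PI of the flower. Their part in the wall values was not tested.

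The 5 wall loci with the smallest p-values were as follows. AT1G02460 (pectin lyase-like) was at 2.37 to 4.16 CPM (median 3.27, n = 5) in resistant lines and 1.36 to 2.65 CPM (median 1.97, n = 7) in susceptible ones, with a log2 difference of 0.66 (SE 0.16). AT3G53190 (pectin lyase-like) was at 72.1 to 81.1 CPM (median 74.9, n = 5) and 43.7 to 76.0 CPM (median 59.9, n = 7), a log2 difference of 0.33 (SE 0.10). AT4G13210 (pectin lyase-like) was at 3.52 to 4.55 CPM (median 4.40, n = 5) and 2.19 to 4.12 CPM (median 2.76, n = 7), a log2 difference of 0.42 (SE 0.14). In these 3 the ranges overlapped, and resistant lines had the higher median. XTH7 was at 2.93 to 4.37 CPM (median 3.498, n = 5) in resistant lines and 3.08 to 21.2 CPM (median 8.35, n = 7) in susceptible ones, with a log2 difference of -1.04 (SE 0.33). AT5G53370, the pectin methylesterase, was at 30.2 to 42.4 CPM (median 32.4, n = 5) and 32.6 to 92.0 CPM (median 62.5, n = 7), a log2 difference of -0.67 (SE 0.24). Here S242 (for both), and S207 as well for AT5G53370, lay among the resistant lines. The limma adjusted p was 0.587 for all 5. The authors' deposited table of their own comparison lists 277 contigs, 3 of them of wall loci: XTH7 with a log2 fold change of -1.48 and a false discovery rate of 0.707, AT2G47670 of the inhibitor superfamily with -1.07 and 1, and EXPB2 with 1.13 and 1.

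Within cross A, 0 wall loci of 120 and 0 of 16051 loci (0%) were called by limma, and edgeR and DESeq2 called 0 wall loci. At an unadjusted p below 0.05 there were 4 wall loci (3.33%), 2 higher and 2 lower in resistant lines, against 5.16% of all loci, of which 2.24% were higher and 2.93% lower. The count was 23 (19.2%, 6 higher and 17 lower) against 18.7% of all loci without S242. It was 9 without R206 (7.56%, against 10.2% of all loci), 2 without R202 (1.67%, against 2.31%) and 2 without S207 (1.68%, against 5.16%). The smallest p belonged to AT3G15720, a pectin lyase-like locus, which was at 1.15, 1.76 and 1.03 CPM in R202, R206 and R221 and at 6.78, 2.70 and 2.26 CPM in S205, S207 and S242. The groups did not overlap at this locus, which was picked for its small p, and the share of all loci that separated within cross A was not counted. The log2 difference was -1.17 (SE 0.35). The next 4 were AT1G80170 (pectin lyase-like) with -0.63, PME1 with 0.23, AT1G02460 with 0.54 and the pectin acetylesterase AT5G23870 with 0.28, and the limma adjusted p was 0.686 for all 5.

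Within cross B, limma called 0 wall loci and 4 of 16051 loci in all (0.0249%, with 0.0187% higher). At an unadjusted p below 0.05 there were 18 wall loci (15%), 12 higher and 6 lower in resistant lines, against 4.4% of all loci, of which 2.35% were higher and 2.04% lower. The count was 9 without RP6 (7.5%, against 1.70% of all loci), 11 without RP8 (9.24%, against 2.35%) and 31 without SP9 (26.1%, against 5.57%). The 6 lower ones included 4 XTHs (XTH24, XTH7, XTH4 and XTH6). The 12 higher ones included 4 expansins (EXPB1, EXPB2, EXPB3 and EXPA15) and 1 XTH. EXPB1, a beta-expansin, was at 11.4 and 11.47 CPM in RP6 and RP8 and at 4.65, 4.76, 5.595 and 8.11 CPM in SP3, SP7, SP9 and SRP1. The log2 difference was 0.96 (SE 0.20) and the limma adjusted p 0.408. AT3G61490 (pectin lyase-like) was at 34.6 and 30.2 CPM against 21.0, 10.6, 12.9 and 15.1 CPM, with a log2 difference of 1.14 (SE 0.26) and a limma adjusted p of 0.574. Resistant and susceptible lines did not overlap at either locus. Both loci were picked for their small p, and the share of all loci that separated 2 from 4 lines was not counted.

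XTH24, likewise picked for its small p, was at 7.52 and 5.41 CPM in RP6 and RP8, below all 4 susceptible lines of cross B (16.9 CPM or more). Its log2 difference was -2.56 (SE 0.76), the limma adjusted p 0.929, and SP7 and SRP1 held the highest values. The share of all loci that separated as XTH24 did was not counted. AT3G53190 and EXPB2 completed the 5 smallest p-values, with log2 differences of 0.53 and 1.75 and limma adjusted p-values of 0.687 and 0.708. On the recovered reads edgeR called 0 wall loci and DESeq2 called 4 (EXPB1, AT3G53190, AT3G61490 and XTH24) among 66 of all loci (0.411%). Without S205 and SP9, which leaves 2 resistant and 3 susceptible lines in cross B, limma called 0 wall loci and listed 40 of 118 (33.9%) at an unadjusted p below 0.05, against 9.10% of all loci.

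Whether the phenotype difference was unequal in the 2 crosses was tested by the difference itself, and limma, edgeR and DESeq2 each called 0 wall loci. Limma called 0 of all 16051 loci (0%), and at an unadjusted p below 0.05 it listed 18 wall loci (15%), 14 higher and 4 lower, against 3.1% of all loci, of which 1.73% were higher and 1.38% lower. The count was 10 without SRP1 (8.33%, against 2.28% of all loci), 11 without R202 (9.17%, against 2.75%) and 11 without R221 (9.24%, against 2.87%). Without SP9 it was 29 (24.4%, against 6.20%). Counts without RP6 or RP8, which leave just the other resistant line in cross B, were lower, as was the share of all loci, and are not given here. The difference between crosses was 1.27 (SE 0.35) for AT3G61490, 0.86 (SE 0.25) for AT3G24670 and 1.49 (SE 0.45) for AT1G10640, all pectin lyase-like, on the log2 scale. It was 0.90 (SE 0.27) for EXPB1 and -2.91 (SE 1.04) for XTH24, and the limma adjusted p was 0.999 for all 5. By family, 15 of 16 XTHs had a lower resistant-minus-susceptible difference in cross B than in cross A, with a median of -0.62, and 13 of 18 expansins a higher one, with a median of 0.53. Over all 16051 loci 48.5% were higher and the median was -0.01. The loci of a family did not vary independently. SP7 and SRP1, susceptible lines of cross B, were the highest lines of 8 of the 16 XTHs and the lowest of 4 of the 18 expansins.

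**Figure D5:**
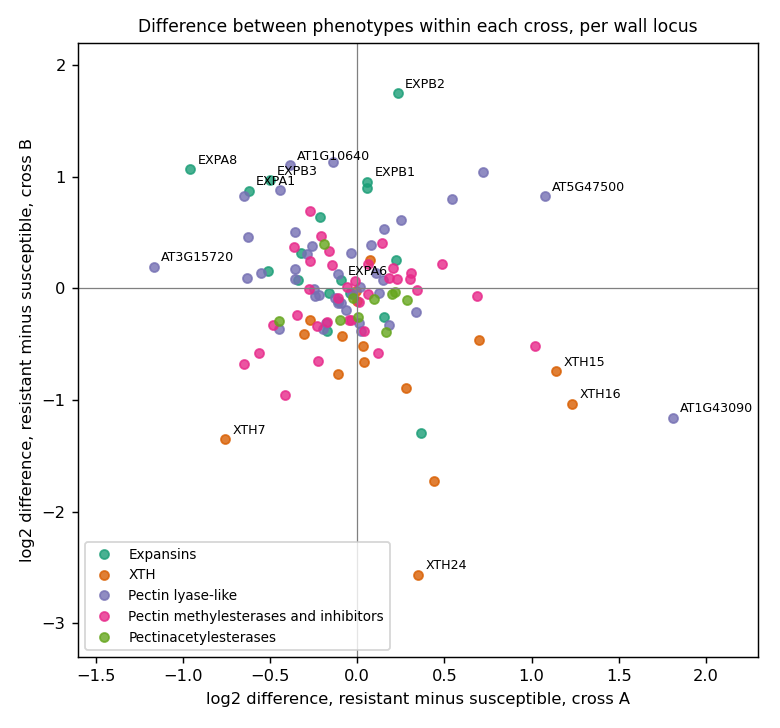
Log2 difference between resistant and susceptible lines within cross A (horizontal axis) and within cross B (vertical axis) for the 120 wall loci tested, coloured by family, with some loci labelled. All XTHs but 1 lie below 0 on the vertical axis, and EXPB2 (1.75) and XTH24 (-2.56) mark its ends.

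Other genes of wall growth were compared from lists of named genes. None of the 10 cellulose synthesis genes, 12 genes of xyloglucan synthesis and trimming, 10 pectin synthesis genes, 5 proton pump and wall sensing genes, 14 brassinosteroid and gibberellin genes and 4 leaf growth regulators measured was called by limma in any of the 5 comparisons. Summed cellulose synthesis genes ranged from 1626 CPM in S242 to 2455 CPM in SP7, with SRP1 next at 2287 CPM. Summed xyloglucan genes varied less, from 706 CPM in R221 to 839.7 CPM in SP3, and summed pectin synthesis genes ranged from 833 CPM in S242 to 1047 CPM in S205. At an unadjusted p below 0.05, limma listed 9 of these 55 genes between phenotypes (16.4%, against 8.22% of all loci), 5 higher in resistant lines and 4 lower. Between crosses it listed 8 (14.5%, against 13.6% of all loci), 5 higher in cross B and 3 lower. THE1, a receptor kinase that monitors the wall, had the line order of XTH9 at its top, with 132 CPM in SP7, 112 CPM in SRP1 and 40.5 to 79.1 CPM elsewhere; it was named after its values were seen. AHA1, a plasma membrane proton pump, was highest in S205 (1024 CPM) and SP9 (965 CPM) and at 454 to 768 CPM elsewhere. These lines were also the highest pair for 16.6% of all loci tested.

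In the list tests the smallest unadjusted p-values between phenotypes were those of CPD, a brassinosteroid synthesis gene (log2 difference 0.20), and GAE1, which makes the pectin precursor galacturonic acid (-0.27), with a limma adjusted p of 0.587 for both. Between the crosses they were those of GAUT1, a pectin synthase (-0.22, limma adjusted p 0.121), and again CPD (-0.20, limma adjusted p 0.192).

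Markers of growth and of cell types also stood high or low in the lines with extreme wall values. GRF1, a transcription factor of leaf cell proliferation, was lowest in S205 (13.4 CPM) and SP9 (17.6 CPM) and at 26.7 to 62.5 CPM elsewhere. These lines were the lowest pair for 15.7% of all loci tested. The 8 dividing-cell markers summed to 162 CPM in S205 and 184 CPM in SP9, the 2 lowest sums. S205 was the lowest line for 7 of the 8, and for 25.9% of all loci. SP7 and SRP1 had sums of 261 and 217 CPM, and the remaining lines 268 CPM (SP3) to 444 CPM (S242). The 8 vascular markers were highest in sum in S205 (433 CPM) and SP9 (384 CPM), and SP7 and SRP1, at 235 and 248 CPM, lay within the range of the other lines. The list did not move as a whole. S205 was the highest line for 4 of the 8 (SUC2, SWEET11, SWEET12 and APL) and SP9 for 3 (CESA4, CESA7 and CESA8). In S205 ATHB8, CESA4, CESA7 and CESA8, at 44.6, 37.1, 31.2 and 35.5 CPM, lay within the range of the other lines. The 4 guard cell markers were lowest in sum in SP7 (58.2 CPM). The part of cell make-up or leaf stage in the wall values was not tested.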

How the data were processed

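Leaf mRNA of 12 lines was sequenced, and edgeR, R 3.3, SAMtools 1.3.1, Bowtie2 and TAIR10 are named in the submitters' processing notes, with no role or order. The authors deposited a signal per contig and library, headed CPM; each library's values are whole multiples of 1 step and sum to between 915639 and 1180040, so they are read counts divided by a scaled library size. The authors deposited contig lengths, and log2 fold changes and p-values with false discovery rates of their own comparison. The treatment of reads matching several contigs is likewise not given in the sources used here, and the library kit is stranded per the labels.

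Contig values were summed per locus and tested with limma 3.58.1 (trend) on log2(CPM + 0.5), which understates changes of low loci, over the 16051 loci that reached 1 CPM in 5 or more libraries, with p-values adjusted over all of them. A difference was called at an adjusted p below 0.05. Phenotype was tested with cross as a covariate, cross with phenotype as a covariate, and differences within and between crosses with 1 mean per group. The design had assumed CPM, and the same test serves the scaled values. Whole reads were recovered for 100% of values (within 0.1 read) and tested with edgeR 4.0.16 and DESeq2 1.42.0 as alternatives, and other alternatives were another scaling, pseudocount and filter, no covariate, contigs tested singly, and each library left out. The tests were first checked on simulated data. Counting error alone limits values near 3 reads, and the number of libraries limits the rest.

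Named loci were, in each family, the 4 of highest mean CPM and the 2 of at least 1 CPM with the largest SD of log2 values, all called loci, and the 5 smallest p-values of a comparison with fewer calls; from the lists, loci called or else those of smallest p. Other loci in the text were picked with their values known. The members and lists were chosen with earlier results of these data known. Markers of the shoot meristem (STM, KNAT1 and WUS), AP3 and AG, and the listed genes RALF1, IBH1 and GRF5 were not analysed here. Positions in the Sisymbrium genome were not used here.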

Additional observations from a re-analysis of the deposited data

Results flagged for a closer look

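The named loci and the summed values were examined for a susceptible line of cross B far from the other 3 (51 sets of values, of which chance alone picks out about 1 in 20) and for opposite phenotype differences in the 2 crosses, and 5 results were picked out. In the susceptible lines of cross B, EXLA2 was at 26.5 CPM in SP7 and at 3.98 to 7.28 CPM in the other 3. In the same lines AT3G15720 was at 2.79 CPM in SP9 and at 1.45 to 1.51 CPM in the other 3. At 3 of the 120 wall loci tested (2.5%), and at 66 of all 16051 loci (0.411%), all resistant lines lay on one side of the susceptible lines in cross A and on the other side in cross B. The difference between the crosses was -0.55 for AT4G19410, 0.86 for AT3G24670 and 1.49 for AT1G10640 on the log2 scale, and the limma adjusted p of that difference was 0.999 for each. The cause was not tested for any of the 5.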

How the results depend on the processing

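Signs were compared for 25 log2 differences, those of called loci and of the smallest p-values, each in its own comparison. None of them changed sign under the alternatives run. Loci named for level or spread alone were not compared, and a small p makes a change of sign less likely. The balance of wall loci at an unadjusted p below 0.05 between phenotypes (8 higher, 3 lower) turned without S242 (12 and 19) and with DESeq2 (9 and 10). The wall loci listed were 25.8% without S242, against 16.2% of all loci, and 15.8% with DESeq2, against 11.4%. The median over all loci between crosses was -0.01 with edgeR and DESeq2 in place of 0.01. DESeq2 on the recovered reads called 11 wall loci between the crosses in place of 4, and 4 within cross B in place of 0, while its calls over all loci were 772 (4.81%) in place of 200 and 66 (0.411%) in place of 4; the cause was not tested. The count between the crosses ranged from 2 to 5 when single libraries were left out, with 2 without R202, RP8, S207, S242, SP3, SP7 or SRP1. The share of all loci called then ranged from 0.337% to 1.69%. The count was 6 with contigs tested singly, against 447 of all 15998 loci (2.79%). There each locus took the smallest p of its contigs, so this count is not like the main one. It was 5 without S205 and SP9, against 1.05% of all loci, an alternative chosen after seeing the data. The other counts of called wall loci stayed at 0 under each alternative run apart from DESeq2 within cross B. Without the locus of highest mean, the log2 ratio of highest over lowest line was 0.58 (main 0.42) for methylesterases and inhibitors, 1.47 (1.12) for expansins, 0.34 (0.48) for pectin lyase-like loci and 0.56 (0.74) for pectin acetylesterases, and 1.68 (2.05) for XTHs. Of 534 values of these 25 log2 differences under alternatives, 509 kept their direction and side of the threshold, 7 gained a call and 18 lost one. With RP6 or RP8 left out, the remaining resistant line of cross B is assumed to vary like the other groups. No paired analysis was possible because the lines share no replicate number in the labels. Values under 0.0196 CPM rest on 3 reads or fewer.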
